A study of Homo sapiens with 16 samples.

Results

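The integrated stress response genes described here are 10 genes given by name: the transcription factors ATF4, ATF3, ATF5 and DDIT3, the feedback genes PPP1R15A and TRIB3, and the target genes ASNS, CHAC1, DDIT4 and SESN2. They are 10 of the 20033 protein-coding genes of GENCODE release 44 used here. Regions called for H3K4me3 or H3K27me3 were assigned to a gene when they lay within 3 kb of any of its annotated start sites. This gave 13 H3K4me3 regions called in 2 or more libraries, of 18734 in all, and 1 region called in a single library. For H3K27me3 it gave 2 regions in at least 2 libraries, of 32643 in all, and 1 region called in a single library.

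CUT&RUN was used, in which a nuclease tethered to an antibody releases the bound chromatin for sequencing, and the deposited files are lists of peaks. The cells were MCF-10A, a human breast epithelial line that is not transformed, exposed for 24 h to 5 mM octanoic acid (OA), a medium-chain fatty acid, or to PBS as vehicle. Each of the 2 marks was profiled in 3 vehicle and 3 OA cultures, seeded as biological triplicates of 1 line, and untreated cells gave 2 H3K4me3 and 2 IgG libraries. H3K4me3 marks active and poised start sites, and H3K27me3 is the Polycomb mark of silenced genes. The vehicle H3K4me3 lists held 19953, 16381 and 16086 peaks on the autosomes, X and Y, and the OA lists held 17988, 17975 and 21033. The H3K27me3 lists were less even, with 18801, 47648 and 28850 peaks in vehicle and 32363, 25540 and 9091 in OA. OA replicate 3 was the shortest of them. Read depth was not used here. The peaks were ranked within each library by −log10 p (column 8 of the lists), and the rank is given as the percentage of that library's peaks at or below the value.

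The basal and epithelial genes KRT5, KRT17, ITGB4 and EGFR had an H3K4me3 region at the start site in all 6 vehicle and OA libraries. LAMB3, CDH1 and EPCAM had one in 2 vehicle and 3 OA libraries. KRT14 was called in 2 vehicle libraries and no OA library. TP63, whose short isoform marks basal cells, had no call at its canonical start site and at another start site had calls in 2 vehicle libraries and 1 OA library. The other marker lists were mostly without H3K4me3. CDKN2A and MTAP, deleted in this line, ESR1 and PGR, PTPRC, CD3E, PECAM1, CDH5, ALB and NEUROD1 had no H3K4me3 region within 3 kb of a start site. H3K27me3 was called at PGR and CD3E in 4 libraries each and at ESR1, ALB and NEUROD1 in 2 each. SYP was the exception among the markers of other cell types, with 2 OA calls at its canonical start site and calls in all 6 libraries beside another start site. KRT5 was the only marker with a peak in an IgG library, in IgG replicate 1.

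In the integrated stress response, kinases that sense amino acid lack, misfolded protein, heme lack or viral RNA phosphorylate the initiation factor eIF2. General translation then falls while ATF4 mRNA is translated more. ATF4 binds with C/EBP family partners to amino acid response elements and drives genes of amino acid supply, redox control and, with DDIT3 (CHOP), cell death. PPP1R15A (GADD34) closes the loop by bringing phosphatase 1 to phosphorylated eIF2.

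Sequences of 300 bases around RefSeq start sites (250 before, 50 after, GRCh38.p14) were found for 10 of the 10 genes, as 18 promoters, none of them at the canonical start site of ATF3, which was not searched. The promoters below are shown because they hold an amino acid response element core or a cyclic AMP response element and lie under or beside H3K4me3 regions described further on. All are 5′ to 3′ on the strand of the gene, and capitals mark the element. The CHAC1 promoter, chr15:40953221-40953520 on the plus strand, holds the composite CHOP and ATF4 site TGATGCAA on its minus strand, so the capitals read as the reverse complement. The ASNS promoter, chr7:97872359-97872658 on the minus strand, and the upstream ATF3 promoter, chr1:212565157-212565456 on the plus strand, hold the wider core TGATGNAA. The PPP1R15A promoter, chr19:48872171-48872470 on the plus strand, holds the palindrome TGACGTCA.
CHAC1: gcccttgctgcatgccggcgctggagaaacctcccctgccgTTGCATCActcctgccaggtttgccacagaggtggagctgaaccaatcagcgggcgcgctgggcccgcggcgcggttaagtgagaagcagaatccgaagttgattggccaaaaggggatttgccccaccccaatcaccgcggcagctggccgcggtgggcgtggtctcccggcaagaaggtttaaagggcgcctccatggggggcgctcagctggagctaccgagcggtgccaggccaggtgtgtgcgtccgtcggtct
ASNS: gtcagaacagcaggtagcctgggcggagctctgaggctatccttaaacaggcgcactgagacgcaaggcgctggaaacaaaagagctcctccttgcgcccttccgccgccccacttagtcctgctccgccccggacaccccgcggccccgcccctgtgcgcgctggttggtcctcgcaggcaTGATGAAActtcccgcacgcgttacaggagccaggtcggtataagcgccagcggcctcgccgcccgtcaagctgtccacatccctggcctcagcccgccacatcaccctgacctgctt
ATF3 upstream: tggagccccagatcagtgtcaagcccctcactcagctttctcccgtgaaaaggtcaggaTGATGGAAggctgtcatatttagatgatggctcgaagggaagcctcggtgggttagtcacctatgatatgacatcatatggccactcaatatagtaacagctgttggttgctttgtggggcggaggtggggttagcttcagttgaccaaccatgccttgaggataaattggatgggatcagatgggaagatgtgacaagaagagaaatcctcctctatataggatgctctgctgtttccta
PPP1R15A: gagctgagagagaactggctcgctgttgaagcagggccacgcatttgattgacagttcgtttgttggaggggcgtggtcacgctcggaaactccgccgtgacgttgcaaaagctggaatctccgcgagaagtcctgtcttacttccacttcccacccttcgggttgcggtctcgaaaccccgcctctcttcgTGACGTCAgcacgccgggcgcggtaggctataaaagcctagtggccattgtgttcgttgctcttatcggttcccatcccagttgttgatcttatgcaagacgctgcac

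Counted from the RefSeq start site, the CHAC1 element began at −209, the ASNS element at −68, the ATF3 element at −191 and the PPP1R15A element at −58. Both strands of all 35116 RefSeq promoters were searched. TGATGCAA was in 0.866% of them, TGATGNAA, which includes it, in 3.62%, and TGACGTCA in 1.85%. The AP-1 core TGANTCA, in 7.71% of promoters, was found in DDIT3 and ATF5. The endoplasmic reticulum stress element was in 0.0769% of promoters and in none of the 18. These are matches of letters and no binding was measured.

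The canonical start site of every one of the 10 genes lay in a merged H3K4me3 region with a peak in all 6 vehicle and OA libraries. The peak of a single library did not always reach the start site itself. At PPP1R15A the OA calls began at +462, +65 and +82 bp, and at TRIB3 at +56, +277 and +49 bp. The canonical start site lay in a region of all 6 libraries at 51.2% of coding genes, 56.4% had one within 3 kb of any start site, and 59.1% of H3K4me3 regions were called in all 6. When the peaks of a library had to cover 50% of the merged region, 3 of the 10 genes had a region of all 6 libraries, against 34.7% of coding genes. The peaks ranked in the middle of their libraries, with a median percentile over the 10 genes of 63.8, 57.4 and 53.3 in vehicle and 59.1, 61.3 and 57.2 in OA. In the untreated H3K4me3 libraries, 10 and 7 of the 10 start-site regions had a peak anywhere within them. The same held at 90.5% and 84.3% of the 10247 coding genes with a start-site region of all 6 libraries. Neither IgG library had a peak in any of the 10 regions (1.34% and 0.0293% of those genes). No region of these genes was OA-only (a peak in 3 OA and 0 vehicle libraries, 1.84% of all regions) or vehicle-only (the reverse, 0.0801%).

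Vehicle replicate 3 stood apart from the other H3K4me3 libraries at these genes. For narrow peaks, the number of fragments at the summit (pileup) and the caller's local background can be solved from the fold enrichment (column 7) and −log10 p if both were made as MACS2 makes them. The only check was whether a whole number of fragments returned both deposited values, and which control the caller used is not given in the sources used here. The median pileup over the 10 start sites was 80.0, 114.0 and 26.0 fragments in the vehicle libraries and 42.0, 103.5 and 101.5 in OA. Vehicle replicate 3 had the lowest pileup at 8 of the 10 genes and the shortest called length at 8, and OA replicate 1 had the lowest pileup at the other 2 and the shortest length at the other 2. The results at named genes are therefore also given without vehicle replicate 3 where they pass the test.

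**Figure D1:**
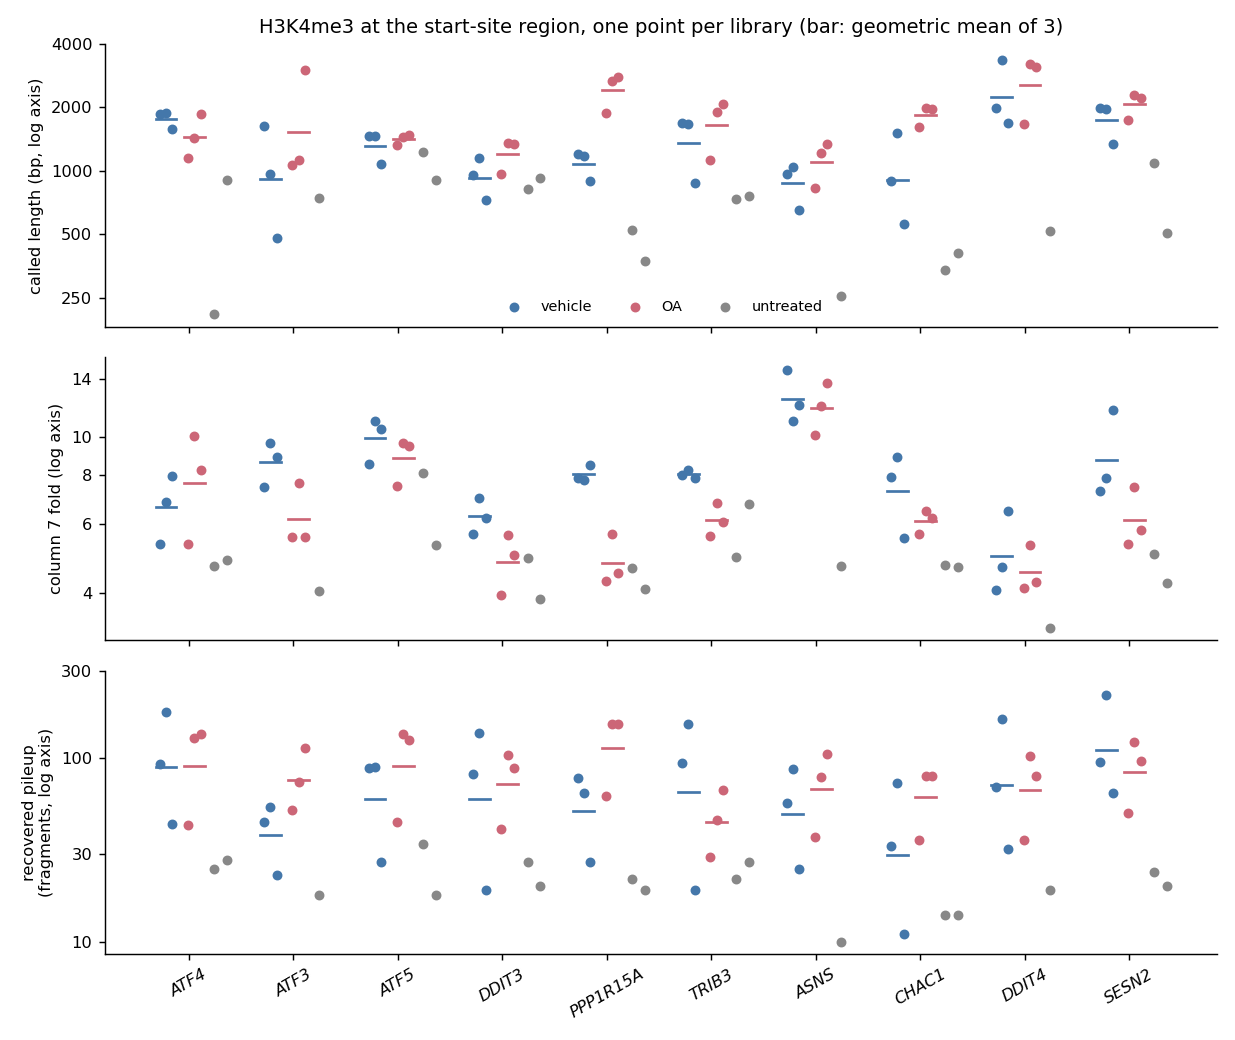
H3K4me3 at the start-site region of the 10 genes (x axis): called length in bp (top), column 7 fold (middle) and recovered pileup in fragments (bottom), all on log axes, with 1 point per vehicle, OA or untreated library and a bar at the geometric mean of 3. At PPP1R15A the 3 OA libraries lie above vehicle in length and below it in fold, and in length and pileup the lowest point of the 6 vehicle and OA libraries is vehicle replicate 3 at 8 of the 10 genes.

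Among the transcription factors, ATF4, the effector of the pathway, had 1 region, chr22:39519436-39521753 (hg38), which covered all 9 of its annotated start sites. The called length (summed over the peaks of the region) was 1863, 1881 and 1582 bp in the vehicle libraries and 1152, 1431 and 1868 bp in OA. Column 7 fold was 5.34, 6.82 and 7.95 in the vehicle libraries and 5.34, 10.04 and 8.23 in OA, with overlapping groups. It is the value of the strongest peak of the region. The summit of that peak lay at −588, −584 and +167 bp from the canonical start site in vehicle and at −641, −597 and −606 bp in OA. The fold of vehicle replicate 3 is therefore from another position than that of the other libraries. ATF4 was the only one of the 10 genes whose length, after each library was centred on its median, was lower in all 3 OA libraries (8.8% of all regions). The log2 difference in length was −0.44 ± 0.17 (SE) and in fold 0.37 ± 0.18, and neither passed limma's test (adjusted p = 0.576 and 0.695). Without OA replicate 3 the differences were 0.37 in fold and −0.55 in length over the same region. When the peaks were merged again without that library, the region split into 2, and the part at the start site gave −0.329 in fold and −0.878 in length (limma adjusted p = 0.998 and 0.888).

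ATF3, a stress-induced repressor and activator of the ATF/CREB family, was called at its canonical start site and, in fewer libraries, beside an upstream one. Its annotated start sites number 7, and the first (212565334) lies at −43427 bp from the canonical one (212608761). The region at the canonical start site, chr1:212607026-212610025, was called in every vehicle and OA library, with lengths of 1636, 972 and 481 bp for vehicle and 1065, 1126 and 3000 bp in OA. The vehicle and OA lengths overlapped, and OA replicate 3 was the longest. Fold was 7.45, 9.63 and 8.86 in the vehicle libraries and 5.57, 7.64 and 5.58 in OA. After centring, all 3 OA libraries were below vehicle (log2 difference −0.31 ± 0.17, limma adjusted p = 0.718, and −0.18 without OA replicate 3).

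The upstream start site of ATF3 was called less often. A region of 708 bp, chr1:212566634-212567341, lay 1300 bp downstream of that start site, within an intron, and was called in vehicle replicate 1 (284 bp, percentile 7.48), OA replicate 2 (374 bp, percentile 19.5) and OA replicate 3 (705 bp, percentile 29.5). The mean percentile, with 0 where no peak was called, was 2.49 ± 4.32 in vehicle and 16.32 ± 14.99 in OA (SD, n = 3), a difference smaller than the spread (two-sided exact permutation test, p = 0.4, smallest possible 0.1). No untreated library had a peak there.

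ATF3 was also the only one of the 10 genes with H3K27me3 regions in at least 2 libraries, against 13.8% of coding genes. Both an H3K4me3 region of all 6 libraries and an H3K27me3 region were found at 2.12% of coding genes. The larger H3K27me3 region, chr1:212604241-212607800, lay wholly in intron upstream of the canonical start site and was called in all 6 H3K27me3 libraries, as 4.06% of H3K27me3 regions were. Its called length was 2451, 3279 and 3403 bp in the vehicle libraries and 2285, 1913 and 1322 bp in OA, so that all 3 OA values were below vehicle. Fold was 2.25, 2.23 and 2.34 in the vehicle libraries and 2.70, 2.52 and 3.04 in OA, with all 3 OA values above vehicle. After centring, the log2 difference was 0.23 ± 0.076 in fold (adjusted p = 0.629) and −0.30 ± 0.41 in length (adjusted p = 0.872), and without centring the length difference was −0.75 ± 0.36 (adjusted p = 0.556). None of the 1325 regions tested passed limma in either direction, for fold (0.0%) or for length (0.0%). The shares of regions with all centred OA values above vehicle in fold, 7.02%, or below it in length, 4.98%, are the background for such an ordering.

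The edge of the ATF3 H3K27me3 region that faced the canonical start site lay at −961, −996 and −1064 bp from it in vehicle and at −1375, −2608 and −2829 bp in OA. The groups did not overlap, and the difference was −1264 bp, with means of −1007 ± 52.4 bp in vehicle and −2271 ± 784 bp in OA (SD, n = 3). The exact permutation test gave p = 0.1, the smallest that 3 libraries against 3 allow. This edge was measured after the values had been seen, and the short list of OA replicate 3 has the farthest edge. Both edges of the 1325 regions called in all 6 H3K27me3 libraries, 2650 edges, give the background. In 9.89% of them every OA edge lay nearer the middle of its region than every vehicle edge, and in 3.74% after each library was centred on its median. The ATF3 groups were also apart after centring, by −1162 bp, and a difference at least as far inward was found at 0.83% of the edges. Without OA replicate 3 the difference was −984 bp as called, with a share of 1.45%. The far edge of the region lay between −4520 and −4150 bp in all 6 libraries. Over all libraries merged, the H3K27me3 and H3K4me3 regions shared 775 bp, chr1:212607026-212607800, to which the H3K4me3 call of OA replicate 3 alone extended. A second H3K27me3 region, chr1:212567898-212569548, lay in intron 2564 bp downstream of the upstream start site and was called in vehicle replicate 2 (1580 bp) and in OA replicates 1, 2 and 3 (187, 800 and 189 bp). Its mean percentile was 31.1 ± 53.8 in vehicle and 47.6 ± 40.8 in OA (SD, n = 3; exact permutation p = 0.8).

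**Figure D2:**
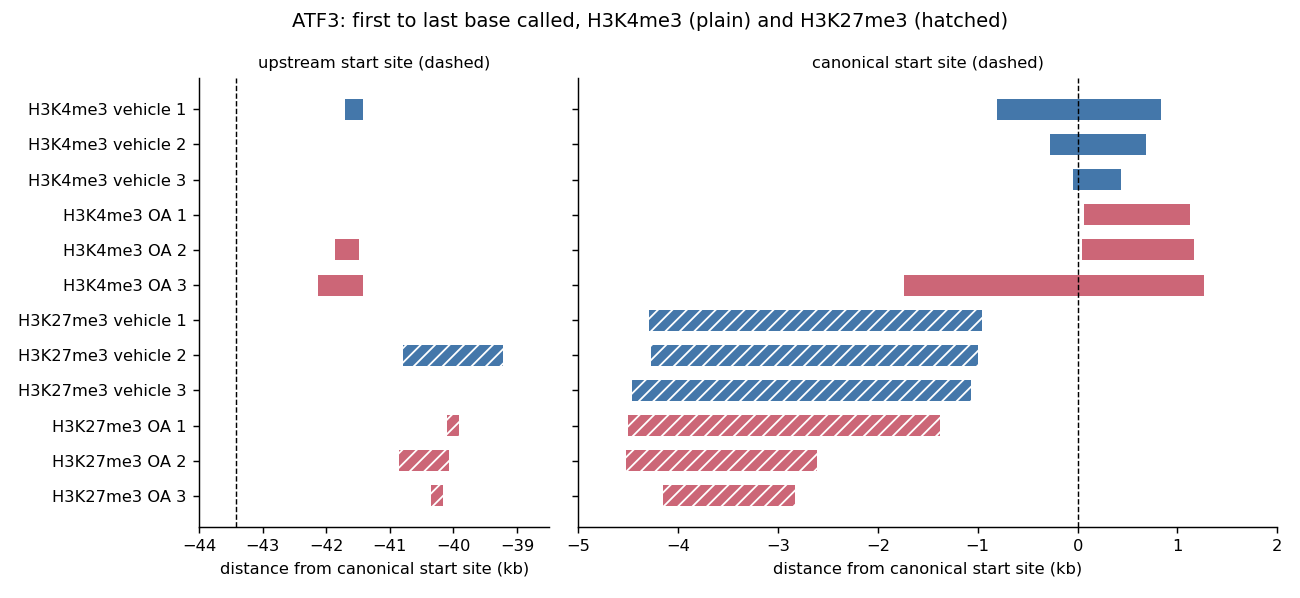
First to last base called at ATF3 in each of the 6 H3K4me3 and 6 H3K27me3 vehicle and OA libraries, as distance in kb from the canonical start site, around the upstream start site (left) and the canonical one (right); dashed lines mark the start sites. The H3K27me3 edge facing the canonical start site lies at −961 to −1064 bp in vehicle and at −1375 to −2829 bp in OA.

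ATF5, a relative of ATF4 that takes part in the mitochondrial stress response, had 1 region, chr19:49928532-49930026, which also covered the canonical start site of NUP62 and a start site of IL4I1, both on the opposite strand. Peaks there cannot be assigned to 1 of the 3 genes. Lengths were 1457, 1463 and 1079 bp in vehicle and 1322, 1447 and 1476 bp in OA, and fold was 8.52, 10.9 and 10.5 in the vehicle libraries and 7.51, 9.62 and 9.44 in OA. Neither length nor fold passed the test (log2 difference −0.061 ± 0.13 and −0.0070 ± 0.15, limma adjusted p = 0.89 and 0.998). With 1 library left out the length difference was −0.121 (without OA replicate 1) to −0.0048 (without vehicle replicate 3).

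DDIT3, the pro-apoptotic C/EBP family factor CHOP, lies head to head with MBD6 and had 3 regions. The start-site region, chr12:57519142-57520527, was 952, 1149 and 729 bp long in the vehicle libraries and 963, 1356 and 1342 bp in OA, with fold of 5.67, 6.98 and 6.23 for vehicle and 3.97, 5.63 and 5.01 in OA. The vehicle and OA groups overlapped in length and separated in fold, where OA was lower. The log2 difference in fold was −0.21 ± 0.15 (adjusted p = 0.777). A second region, chr12:57522678-57523062, lay 2164 bp upstream of the DDIT3 canonical start site and covered the canonical start site of MBD6, a methyl-CpG-binding domain gene. It was called in vehicle replicates 1, 2 and 3 (228, 247 and 290 bp, percentiles 45.6, 44.9 and 41.6) and only in replicate 3 of OA (385 bp, percentile 23.5). The mean percentile was 44.03 ± 2.13 in vehicle and 7.84 ± 13.6 in OA (SD, n = 3; exact permutation p = 0.1, the smallest possible). Calls in 3 vehicle libraries and at most 1 OA library were found at 0.486% of regions, and limma on the percentiles over all regions gave an adjusted p of 0.207. The third region, chr12:57523263-57523909, lay 120 bp from another start site of MBD6 and 2749 bp from the canonical start site of DDIT3, and the DDIT3 start-site region lay 183 bp from a further MBD6 start site, so peaks in the 3 regions cannot be assigned to 1 of the 2 genes. The third region was called in all 6 libraries, with lengths of 645, 642 and 324 bp in vehicle and 493, 405 and 444 bp in OA and no difference past the test (fold 0.046 ± 0.18, adjusted p = 0.967; length −0.36 ± 0.20, adjusted p = 0.684).

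PPP1R15A showed the clearest difference of the 10 genes. Its region, chr19:48872269-48875303, started near the canonical start site and ran into the coding sequence, with 2620 bp in exons and 1905 bp of coding sequence. The called length was 1203, 1172 and 900 bp in the vehicle libraries and 1882, 2659 and 2801 bp in OA. Every OA library was longer than every vehicle library, by 0.996 ± 0.139 on the log2 scale (1.99-fold, 95% interval on that scale 0.667 to 1.32), a difference that did not pass limma's test (adjusted p = 0.206) and ranked 6 of 11071 regions by p. Column 7 fold was 7.85, 7.75 and 8.49 in the vehicle libraries and 4.30, 5.65 and 4.51 in OA, lower in all 3 OA libraries (log2 difference −0.58 ± 0.17, adjusted p = 0.509). The recovered pileup was 78, 65 and 27 fragments in the vehicle libraries and 62, 153 and 154 in OA, which overlapped as recovered and was higher in all 3 OA libraries after centring. The recovered local background was 9.07, 7.52 and 2.30 in the vehicle libraries and 13.7, 26.3 and 33.3 in OA, without centring. It was solved from the same fold and p, within the limits of that recovery, so it is no observation separate from the lower fold.

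The last called base was 1127, 1019 and 938 bp downstream of the start site in vehicle and 2343, 2723 and 2882 bp downstream in OA. These positions are 31.0%, 28.0% and 25.8% of the 3638 bp from the canonical start site to the gene end in vehicle, and 64.4%, 74.8% and 79.2% in OA. The first called base was at −75, −152 and +39 bp in vehicle and at +462, +65 and +82 bp in OA. This edge also lay farther downstream in every OA library, by 265.7 bp on average as called, and farthest in OA replicate 1. The means were −62.7 ± 96.1 bp in vehicle and 203 ± 224 bp in OA (SD, n = 3, exact permutation p = 0.1, the smallest possible). Such an order of the upstream edge was found at 2.53% of 10247 coding genes as called and at 14.2% after centring. The untreated libraries reached 955 and 412 bp downstream.

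The downstream edge, at the last called base, was then tested over all 10247 coding genes whose canonical start site lay in a region of all 6 libraries. This measure was added after the values had been seen. Each library was centred on its median. PPP1R15A rose by 1570 ± 120 bp (SE; 95% interval 1293 to 1847, limma adjusted p = 0.00408) and ranked 3 of 10247 by p and 2 by difference, counted from the farthest downstream in OA. Without vehicle replicate 3 the difference was 1628 bp (adjusted p = 0.00695). Over all genes, 28 edges (0.273%) were farther downstream in OA and 13 (0.127%) less far, and without centring 7 and 1. These counts turned on single libraries, with 112 farther downstream and 173 less far without vehicle replicate 3, and 2 and 1 without OA replicate 2.

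**Figure D3:**
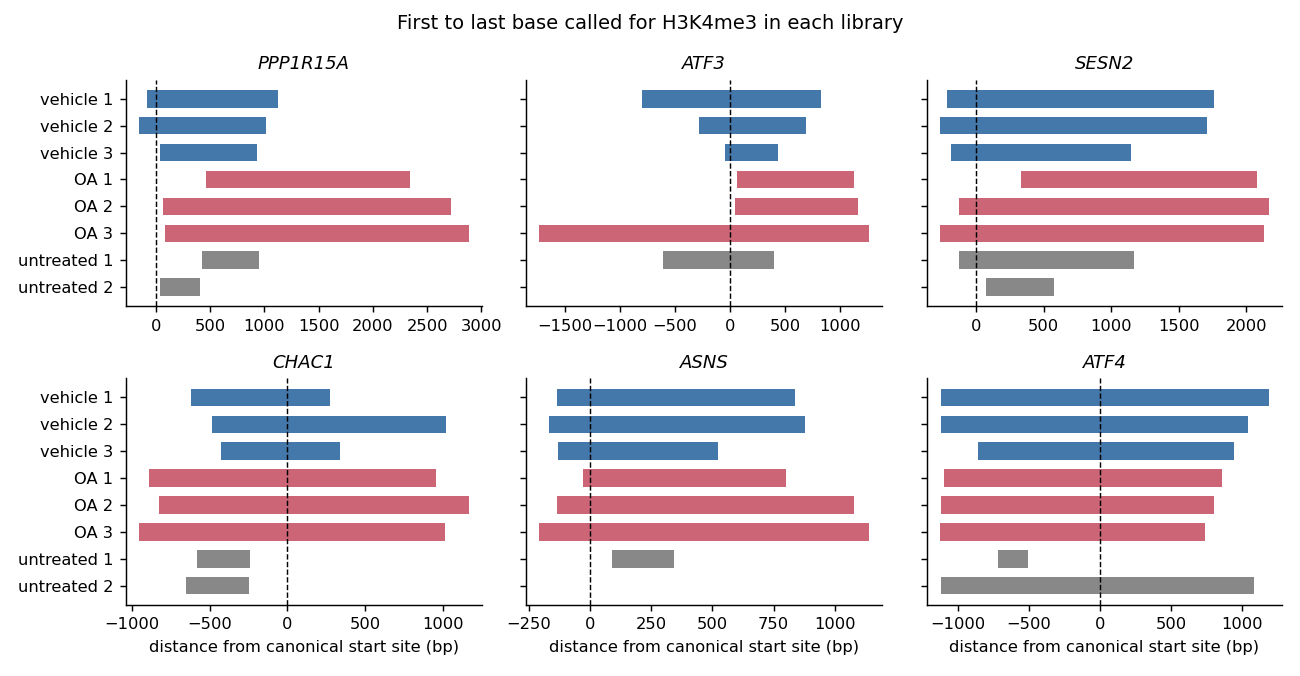
First to last base called for H3K4me3 in each vehicle, OA and untreated library (rows) at 6 of the genes, as distance in bp from the canonical start site (dashed line); gaps between peaks of 1 library are not drawn. At PPP1R15A the OA bars end 2343 to 2882 bp downstream and the vehicle bars 938 to 1127 bp downstream.

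TRIB3, a pseudokinase that restrains ATF4 and DDIT3, had its main region at chr20:380655-382934. Lengths were 1681, 1667 and 880 bp in vehicle and 1131, 1898 and 2085 bp in OA. Fold was 7.99, 8.21 and 7.87 in the vehicle libraries and 5.61, 6.78 and 6.06 in OA, below vehicle in each OA library before centring. The strongest summit lay at +92, +410 and +108 bp from the canonical start site in vehicle and at +424, +1611 and +1617 bp in OA. Fold and pileup were thus not read at the same position in every library. After centring the difference was −0.22 ± 0.16 in fold and 0.13 ± 0.18 in length (log2, adjusted p = 0.784 and 0.839), and the length difference was 0.019 without vehicle replicate 3 and 0.291 without OA replicate 1. The alternative promoter of TRIB3, at −17925 bp from the canonical start site, had a region in OA replicate 3 alone, chr20:363157-363862, which was 706 bp long, at percentile 15.5 and 322 bp downstream of that start site.

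Among the target genes, ASNS, asparagine synthetase, had the highest fold of the 10 genes in each of the 6 libraries. Its region, chr7:97871269-97872614, covered 11 of its 16 start sites and most of the promoter printed above. Lengths were 972, 1045 and 653 bp in vehicle and 826, 1212 and 1346 bp in OA, and fold was 14.7, 10.9 and 12.02 in the vehicle libraries and 10.1, 11.95 and 13.7 in OA. The groups overlapped in both, with log2 differences of 0.18 ± 0.14 in length and 0.089 ± 0.20 in fold (adjusted p = 0.741 and 0.938). With 1 library left out the length difference was 0.114 (without OA replicate 3) to 0.283 (without OA replicate 1). The fold difference then changed sign, from −0.0452 (without vehicle replicate 2) to 0.287 (without vehicle replicate 1). An H3K27me3 peak of 218 bp lay over the ASNS start site, chr7:97872234-97872451, in vehicle replicate 1 and in no other library.

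CHAC1, which degrades glutathione, was called over a longer stretch in each OA library. Lengths in its region, chr15:40952515-40954639, were 896, 1507 and 558 bp in vehicle and 1609, 1995 and 1972 bp in OA, so every OA library was longer. The log2 difference was 0.86 ± 0.22 (1.82-fold, 95% interval on that scale 0.339 to 1.39, adjusted p = 0.428). Fold was 7.88, 8.87 and 5.53 in the vehicle libraries and 5.68, 6.48 and 6.21 in OA (−0.087 ± 0.21, adjusted p = 0.945). The pileup was 33, 73 and 11 fragments in the vehicle libraries and 36, 80 and 80 in OA.

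DDIT4 (REDD1), an inhibitor of mTORC1 signaling, had the longest merged region of the 10 genes, chr10:72273001-72276732, which spanned the whole gene. Lengths were 1992, 3347 and 1682 bp in vehicle and 1668, 3213 and 3117 bp in OA, with a log2 difference of 0.032 ± 0.25 (adjusted p = 0.971). Fold was 4.08, 4.66 and 6.47 in the vehicle libraries and 4.13, 5.31 and 4.27 in OA.

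SESN2, which senses leucine upstream of mTORC1, has 1 annotated start site, in chr1:28259248-28261690. Lengths were 1978, 1976 and 1339 bp in vehicle and 1751, 2303 and 2211 bp in OA. Fold was 7.28, 7.84 and 11.7 in the vehicle libraries and 5.34, 7.44 and 5.79 in OA, overlapping as deposited and lower in all 3 OA libraries after centring (−0.35 ± 0.19, adjusted p = 0.718). Without vehicle replicate 3 it was −0.20. The pileup was also lower in OA on average, at −0.46 ± 0.27 on the log2 scale (adjusted p = 0.384).

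Over the 10 start sites, no gene passed the test of fold or of length. Among all 11071 regions called in the 6 libraries, 1 was higher in fold (0.00903%), 0 lower (0.0%), and none differed in length in either direction (0.0% each). At an unadjusted limma p under 0.05 there were 816 regions in fold (7.37%) and 900 in length (8.13%), and 1 and 3 of the 10 genes. In fold 3 genes were higher and 7 lower, where 47.6% of all regions were higher and 52.4% lower. The median log2 difference was −0.15 against −0.012 over all regions. After centring, all 3 OA libraries were below vehicle at 4 genes (ATF3, DDIT3, SESN2 and PPP1R15A, 7.2% of all regions) and above at none (6.79%). In length 8 genes were longer and 2 shorter, where 45.7% of all regions were longer and 54.3% shorter. The median was 0.16 against −0.026. After centring, all OA libraries were longer at 3 genes (DDIT3, CHAC1 and PPP1R15A), an ordering found at 7.6% of all regions.

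The pileup gave the opposite sign to fold at several of these genes. On the centred log2 scale it was 1.08 ± 0.26 higher in OA at PPP1R15A (adjusted p = 0.0994), 0.98 ± 0.26 at CHAC1 (adjusted p = 0.129) and 0.93 ± 0.27 at ATF3 (adjusted p = 0.155). At ASNS and ATF5 it was 0.38 ± 0.21 and 0.54 ± 0.23 (adjusted p = 0.354 and 0.274). TRIB3 had the lowest difference, −0.60 ± 0.33 (adjusted p = 0.361). Of the 10 genes, 6 had a positive difference in pileup and 4 a negative one, with a median of 0.295 against −0.019 over all regions. All 3 OA libraries were above vehicle at PPP1R15A, CHAC1, ATF3, ASNS and ATF5 (14.0% of all regions) and below at none (11.0%). No gene of the 10 passed, and of 11035 regions with a recovered pileup 51 were higher in OA (0.462%) and 3 lower (0.0272%). The pileup was an alternative added after the values had been seen.

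After centring, 6 of the other 9 genes had a positive difference in the downstream edge and 3 a negative one, where 48.2% of all genes were positive. ATF3 passed the test, with its last called base at 832, 690 and 437 bp in vehicle and 1130, 1166 and 1264 bp in OA, and a difference of 482 ± 69.4 bp (limma adjusted p = 0.0408). That call stood under 2 of 11 alternatives, quantile normalization (adjusted p = 0.041) and without vehicle replicate 3 (adjusted p = 0.0286). It was lost without centring (534 ± 117 bp, adjusted p = 0.502), with a replicate block (adjusted p = 0.0762) and under the others, at adjusted p of up to 0.236. SESN2 reached 1763, 1707 and 1151 bp in vehicle and 2080, 2172 and 2135 bp in OA. The difference of 537 ± 88.1 bp missed the threshold (limma adjusted p = 0.0593). It passed under 2 of 11 alternatives, without vehicle replicate 3 (445 bp, adjusted p = 0.019) and with quantile normalization (512 bp, adjusted p = 0.041). Under the others it missed the threshold, at adjusted p of up to 0.787 (without centring). CHAC1 ended at 273, 1019 and 338 bp in vehicle and 960, 1168 and 1015 bp in OA, which overlapped before centring (453 ± 170 bp, adjusted p = 0.336, and 264 bp without vehicle replicate 1). ASNS and DDIT3 gave 208 ± 78.8 and 241 ± 90.9 bp (adjusted p = 0.341 and 0.338) and TRIB3 396 ± 200 bp (adjusted p = 0.51), which was 198 bp without vehicle replicate 3 and 594 bp with equal numbers of peaks.

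ATF4 had a negative difference, with edges at 1191, 1045 and 941 bp in vehicle and 856, 804 and 741 bp in OA, below vehicle in all 3 OA libraries (−310 ± 88.7 bp, adjusted p = 0.208). DDIT4 gave −271 ± 244 bp (adjusted p = 0.741), which was −26.7 bp without vehicle replicate 2 and −53.5 bp without OA replicate 1. The ATF5 edge was at 821 bp in each OA library and 821, 789 and 808 bp in vehicle, so that as called OA was 15 bp farther on average. After centring the difference was −36.3 ± 101 bp (adjusted p = 0.931), and 67.2 bp without vehicle replicate 3. The median over the 10 genes was 319 bp, against −5.67 bp over all genes. After centring, all OA edges were beyond vehicle at 5 genes (PPP1R15A, ATF3, SESN2, CHAC1 and ASNS, 10.5% of all genes) and short of it at 1 (ATF4, 8.76%). An unadjusted p under 0.05 was found at 7 of the 10 genes and at 11.7% of all genes.

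**Figure D4:**
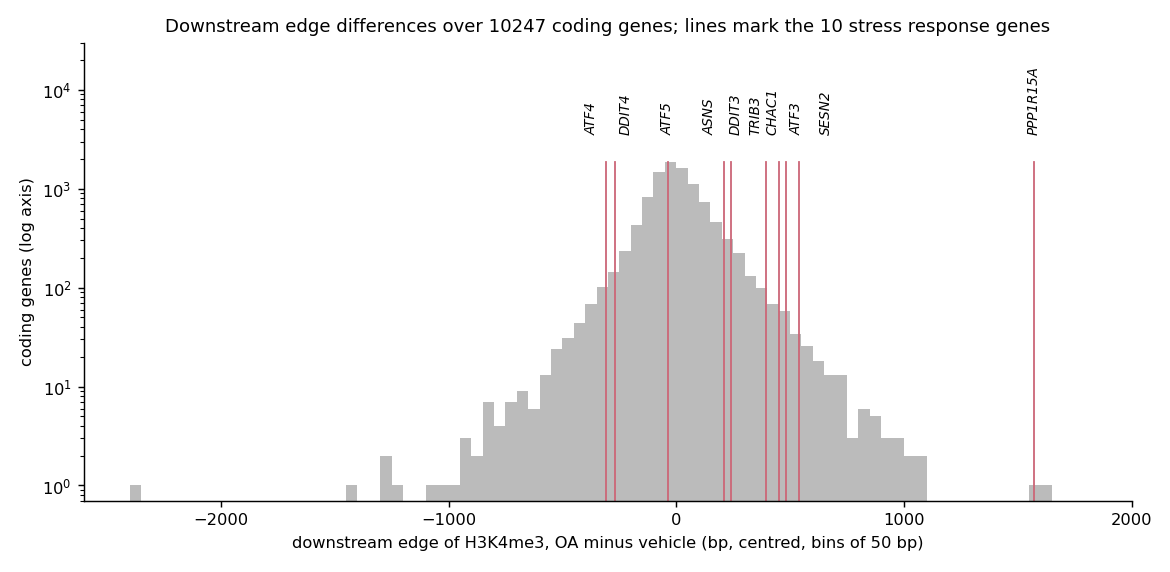
Differences in the H3K4me3 downstream edge between OA and vehicle (x axis, bp after centring, bins of 50 bp) over 10247 coding genes (y axis, log scale), with a line at each of the 10 genes. PPP1R15A lies at 1570 bp, apart from the other 9, which lie between −310 and 537 bp.

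**Figure D5:**
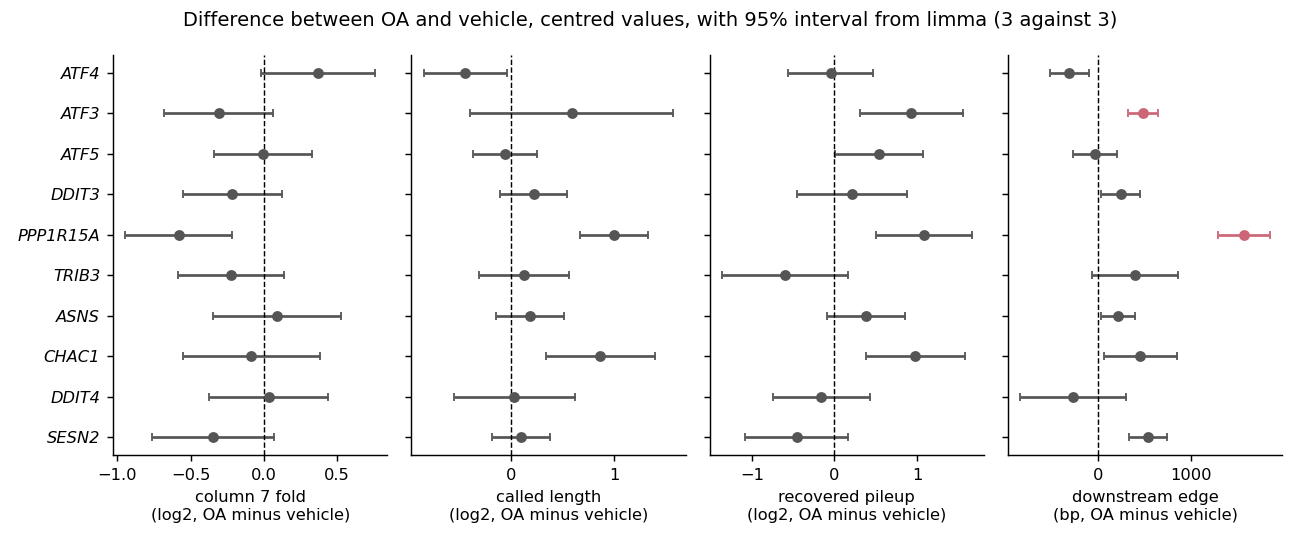
OA minus vehicle at the start-site region of each gene for column 7 fold, called length and recovered pileup (log2) and for the downstream edge (bp), after centring, with the 95% interval of limma from 3 against 3 libraries; red marks an adjusted p under 0.05. PPP1R15A and ATF3 are marked in the edge panel, and no gene is marked in the other panels.

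A wider list of 54 genes of the pathway was described in the same way. The H3K4me3 region nearest the canonical start site, within 3 kb, was called in all 6 libraries at 51 of them and at 53.5% of coding genes. The 3 exceptions were NUPR1 and GDF15 (2 vehicle and 3 OA libraries each) and BBC3 (3 vehicle and 2 OA). None of the 51 passed the test of fold or of length. The edge was tested at the 46 whose canonical start site the region covered, and none passed. No gene of the list had an OA-only or vehicle-only region. In fold 16 had a positive difference and 35 a negative one (median −0.16), where 47.6% of all regions were positive (median −0.012). In length 27 were positive and 24 negative (median 0.024), where 45.7% of all regions were positive (median −0.026). All OA libraries were above vehicle in fold at 4 of the 51 (6.79% of all regions) and below at 8 (7.2%). In length they were above at 3 (7.6%) and below at 3 (8.8%), and in the edge above at 5 of 46 (10.5% of all genes) and below at 4 (8.76%).

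The counts by group within the wider list are given as a description, and differences between groups were not tested. Of the 14 sensor and core genes, such as the eIF2 kinases and the subunits of eIF2B, 8 had a positive difference in fold and 3 in length. Of the 9 aminoacyl-tRNA synthetase and tRNA export genes, 1 was positive in fold and 4 in length, and of the 8 genes of the other arms of the unfolded protein response, 1 and 7. Of the 7 amino acid supply genes and the 7 other ATF4 targets tested, 2 were positive in fold and 4 in length in each group. Of the 3 partners of ATF4 tested, 1 was positive in fold and 2 in length, and of the 3 secreted targets, 1 and 3. The lowest differences in fold were at WARS1 (tryptophanyl-tRNA synthetase, −0.64 ± 0.17), HERPUD1 (−0.64 ± 0.21) and HSPA5 (the chaperone BiP, −0.58 ± 0.19). The highest were at VLDLR (a lipoprotein receptor, 0.58 ± 0.17), EIF2B1 (0.34 ± 0.17) and ERN1 (the stress sensor IRE1, 0.29 ± 0.20), and the adjusted p of these 6 ran from 0.501 to 0.772. The length difference at VLDLR was 1.78 ± 0.40 (log2, adjusted p = 0.398). H3K27me3 was found at 2 of the 54 genes (13.8% of coding genes), at MARS1 in 5 libraries and at VLDLR in 3.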

How the data were processed

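CUT&RUN libraries were sequenced and peaks called in each library by the authors. Per the labels, hg38 was used, with MACS2 2.2.7.1 for narrow peaks and SICER for broad peaks; the broad lists have the layout that MACS2 writes. The aligner and the control of the caller are not given in the sources used here. Deposited column 7 is a fold ratio over local background, and deposited columns 8 and 9 are −log10 p and −log10 q, unscaled between libraries; the largest q-value was 0.00998 in narrow lists and 0.1 in broad lists.

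Peaks of the 6 vehicle and OA libraries of a mark were merged (overlap of 1 bp) and kept where 2 libraries had a peak. Regions called in all 6 were tested with limma 3.58.1 (R 4.3.3) on log2 values centred by library, with Benjamini-Hochberg adjustment over all regions and a threshold of 0.05; the code was tested on simulated data. Single regions were compared by two-sided exact permutation tests of the percentile. Python 3.11.15, numpy 2.4.6, scipy 1.17.1, pandas 2.3.3 and matplotlib 3.10.9 were used. Promoter sequences are from RefSeq.

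The 10 genes, the wider list and the markers were chosen with earlier results of these data known. Named genes were all 10, all markers, and, from the wider list, genes with H3K27me3 in 3 libraries or the 3 highest and 3 lowest differences in fold, since none passed a test or had OA-only or vehicle-only regions; NUPR1, GDF15 and BBC3 were named after their values were seen. The sequences printed were limited to the amino acid and cyclic AMP response elements. Columns of other samples numbered 0. The downstream edge and the pileup, solved from fold and p with Poisson statistics for 96.1% to 100.0% of narrow peaks, were added after the data were seen. Alternatives were other centring, a q-value of at most 1e-05 (0.01 for H3K27me3), equal numbers of peaks, 50% cover, a 1 kb distance, regions of 1 library, a replicate block and leaving out each replicate.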

Additional observations from a re-analysis of the deposited data

How the results depend on the processing

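Peak lists carry no read depth, so a missing call at these genes says only that none was made at the depth of that library, and 3 libraries against 3 give an exact p of 0.1 at best. The edge at PPP1R15A kept its direction and stayed past the threshold under all 11 alternatives run (1472 to 1688 bp, adjusted p 0.00273 to 0.0449), and the edge at ATF3 stayed past it under 2 of 11 (adjusted p 0.0286 to 0.502). The PPP1R15A length was 0.941 to 1.16 on the log2 scale under its 11 alternatives (adjusted p 0.0667 to 1.0).

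Correlations of same-numbered deviations in fold were −0.045, 0.193 and −0.287 for H3K4me3 and 0.166, 0.031 and 0.081 for H3K27me3. Such deviations also carry differences in library quality, so these values do not settle whether the cultures were paired. With a replicate block the count of the 10 genes with a later edge went from 2 to 1, as ATF3 was lost (adjusted p = 0.0762), the counts over all genes went from 28 and 13 to 22 and 9, and fold and length gave the same counts as before.

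The count of the 10 genes with a later edge was also 1 without centring, under a q-value limit of 1e-05 and with equal numbers of peaks. All genes with a later edge then numbered 7, 7 and 16, and with an earlier edge 1, 4 and 8. With quantile normalization it was 3, as SESN2 passed (adjusted p = 0.041), with 37 later and 18 earlier over all genes. In fold, regions higher in OA numbered 0 with the stricter q-value, equal numbers of peaks or the percentile of column 8, and 51 by pileup; regions lower numbered 1 without centring and 3 by pileup. With equal numbers of peaks, 1 vehicle-only region appeared at the 10 genes (0.159% of all regions under that setting). When peaks had to cover 50% of a region, 3 genes had a region in all libraries (34.7% of coding genes), 1 region was OA-only (2.08% of all regions), 0 genes had an H3K27me3 region in all libraries (0.0948% of coding genes) and 1 H3K27me3 region was left. The 1 kb distance also left 1 H3K27me3 region, at 1 of the 10 genes (9.46% of coding genes), and regions of any 1 library gave 2 genes with H3K27me3 (25.3%).

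Leaving out 1 replicate at a time gave 0 to 3 regions higher in fold, 0 to 11 longer, 2 to 112 genes with a later edge and 1 to 173 with an earlier one, and 1 to 3 of the 10 genes with a later edge; the highest counts were all without vehicle replicate 3. Vehicle-only regions at the 10 genes numbered 0 to 1, with 1 (the region over the MBD6 start site) without OA replicate 3 (0.241% of all regions then). OA-only H3K27me3 regions numbered 0 to 1, with 1 at ATF3 without vehicle replicate 2 (1.0% of all regions then). Without vehicle replicate 2, no DDIT3 value could be fitted.

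The H3K27me3 edge at ATF3 was −1712 to −984 bp under its 8 alternatives, and −930 bp when centring and leaving out OA replicate 3 were combined. Signs turned as follows. In fold (log2), ASNS was −0.0763 without centring, DDIT4 −0.131 without centring and −0.102 with quantile normalization, and ATF5 0.0022 with quantile normalization and 0.00872 with the stricter q-value. In length, ATF5 was 0.0986 without centring and DDIT4 −0.038 with equal numbers of peaks, and the ATF5 edge was 15 bp without centring. By percentile the differences were 11.9 points at ATF3, 11.2 at CHAC1, −7.72 at DDIT4, 10.8 at PPP1R15A and 18.9 at ATF5. By pileup (log2) they were 0.93 at ATF3, −0.046 at ATF4, 0.21 at DDIT3, 0.98 at CHAC1, −0.16 at DDIT4, 1.08 at PPP1R15A and 0.54 at ATF5. With 1 replicate left out, fold ran from −0.349 to 0.0468 at CHAC1, −0.0527 to 0.161 at DDIT4, −0.0452 to 0.287 at ASNS, −0.0398 to 0.0229 at ATF5 and −0.329 to 0.477 at ATF4 (whose region split into 2 without OA replicate 3), length from −0.155 to 0.232 at DDIT4, and the edge from −97.5 to 67.2 bp at ATF5. The causes were not tested.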
